A study of Homo sapiens with 4 samples.

Results

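The genes described here encode the subunits of the human proteasome and the factors that assemble it, measured in Huh7 and Huh1 cells after an siRNA against ODC1 or a negative control (NC) siRNA. They were taken by symbol: 49 of the 18398 listed transcripts had a symbol beginning with PSMA to PSMG followed by a digit. Of these, 48 are proteasome genes, and 1, PSMC3IP, is named for binding a proteasome ATPase but acts in meiotic recombination. At least 1 RPKM, reads scaled to transcript length and library depth, was reached in some library by 46 of the 48.

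The proteasome is the barrel-shaped protease that degrades most short-lived proteins of the cell. Its core particle stacks outer rings of alpha subunits on inner rings of beta subunits, of which PSMB5, PSMB6 and PSMB7 carry the active sites, and its cap holds a ring of ATPases (PSMC) that unfolds substrates and non-ATPase subunits (PSMD) that receive and process ubiquitinated proteins. Interferon-induced subunits (PSMB8, PSMB9, PSMB10) can replace the standard active sites to form the immunoproteasome, which favours peptides for antigen presentation. Ornithine decarboxylase, the enzyme that ODC1 encodes, is a classic substrate that the proteasome degrades without ubiquitin, with the help of antizyme.

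Huh7 and Huh1 are established human hepatocellular carcinoma lines, and no allele or further agent is given for either. The 4 libraries were Huh7 with ODC1 siRNA, Huh7 with NC siRNA, Huh1 with ODC1 siRNA and Huh1 with NC siRNA, each sequenced once, with total depths of 10215332, 12197606, 11227128 and 13384836 reads. All 4 were transfected cells, and untransfected cells were not analysed here. ODC1 itself was at 7.50 RPKM with ODC1 siRNA against 166.9 RPKM with NC siRNA in Huh7, where 4.49% was left, and at 25.01 RPKM against 103.4 RPKM in Huh1, where 24.2% was left. Counting error alone gave 95% intervals of 3.81% to 5.27% in Huh7 and 22.1% to 26.5% in Huh1 (exact binomial).

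All 10 hepatocyte markers examined were at 1 RPKM or more in every library, with summed levels of 2633 and 3323 RPKM in Huh7 with ODC1 and NC siRNA and of 4541 and 5238 RPKM in Huh1. The 2 endothelial markers listed summed to at most 0.022 RPKM. The 5 leukocyte markers summed to 15.5 and 11.4 RPKM in Huh7 and 2.19 and 1.33 RPKM in Huh1, of which only LYZ reached 1 RPKM. The 5 fibroblast markers, of which 4 passed 1 RPKM in Huh7 and 1 in Huh1, summed to 370.04 and 283 RPKM in Huh7 with ODC1 and NC siRNA, against 15.7 and 12.1 RPKM in Huh1. These sums move with the difference between the lines, and the hepatocyte sum was also lower with ODC1 siRNA in both lines. Its largest part was ALB, at 920 and 1166 RPKM in Huh7 with ODC1 and NC siRNA and 2806 and 3447 RPKM in Huh1. Single markers differed: 8 of the 10 were lower with ODC1 siRNA in Huh7 and 7 in Huh1, while TTR was higher in both lines. AFP, TTR and FGB were higher in Huh7 than in Huh1, against the sum. The part of these markers in the results below was not tested.

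Promoter sequences are shown for 3 genes that were far lower in Huh7 than in Huh1 (PSMD9, PSMG4 and the immunoproteasome gene PSMB9) and for 1 that was higher (PSMC1), as examples of the differences described below, chosen with their values known. RefSeq (GRCh38.p14) gives for each a window of 300 bases that spans the transcript start, most of it upstream, all on the plus strand. Capitals mark a match, on either strand, to the core of the antioxidant response element (TGACNNNGC), through which the transcription factor NRF1 (NFE2L1) is known to raise proteasome genes, to the CCAAT box (CCAAT), or to the core of the interferon response element (GAAANNGAA). None of the matches shown overlaps another. The regions are chr12:121888540-121888839 for PSMD9, chr6:3258697-3258996 for PSMG4, chr6:32853942-32854241 for PSMB9 and chr14:90256303-90256602 for PSMC1.
PSMD9: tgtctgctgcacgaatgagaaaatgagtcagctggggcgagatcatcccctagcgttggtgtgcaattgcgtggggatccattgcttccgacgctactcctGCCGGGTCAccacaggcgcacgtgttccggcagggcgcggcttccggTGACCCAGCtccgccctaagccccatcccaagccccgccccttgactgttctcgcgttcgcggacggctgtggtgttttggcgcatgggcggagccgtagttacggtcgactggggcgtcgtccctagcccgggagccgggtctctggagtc
PSMG4: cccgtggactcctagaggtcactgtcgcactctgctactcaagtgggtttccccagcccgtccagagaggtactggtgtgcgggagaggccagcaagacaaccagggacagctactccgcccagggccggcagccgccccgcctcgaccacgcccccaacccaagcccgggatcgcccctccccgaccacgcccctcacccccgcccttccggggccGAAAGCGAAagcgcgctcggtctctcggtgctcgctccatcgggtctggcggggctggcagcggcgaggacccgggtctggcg
PSMB9: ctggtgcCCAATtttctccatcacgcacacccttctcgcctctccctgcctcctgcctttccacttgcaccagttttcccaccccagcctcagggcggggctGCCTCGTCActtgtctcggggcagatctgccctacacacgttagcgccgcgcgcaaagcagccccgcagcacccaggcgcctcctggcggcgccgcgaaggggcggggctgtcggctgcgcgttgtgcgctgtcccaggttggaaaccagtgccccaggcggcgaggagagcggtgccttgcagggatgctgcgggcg
PSMC1: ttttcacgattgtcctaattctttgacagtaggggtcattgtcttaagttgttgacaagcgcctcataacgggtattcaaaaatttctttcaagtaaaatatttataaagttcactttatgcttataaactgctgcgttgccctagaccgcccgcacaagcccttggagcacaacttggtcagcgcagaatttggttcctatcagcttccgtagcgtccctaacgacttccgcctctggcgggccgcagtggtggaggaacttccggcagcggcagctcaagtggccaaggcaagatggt

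PSMD9 held the antioxidant core on both strands, PSMG4 the interferon core, PSMB9 the antioxidant core and a CCAAT box, and PSMC1 none of the motifs. RefSeq promoters were found for 42 of the 48 genes, 51 promoters in all. The antioxidant core was in 15 of the 51 (29.4%), against 13.3% of all 35116 promoters in the table. The CCAAT box was in 20 of the 51 (39.2%), against 34.6% of all promoters. The interferon core was in 8 of the 51 (15.7%), against 8.11% of all, and those 8 genes were PSMA4, PSMB4, PSMB8, PSMB10, PSMC2, PSME1, PSME2 and PSMG4. These matches are descriptions of letters in a fixed window.

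The first results concern levels, since RPKM is scaled to transcript length and allows genes to be set side by side. The 31 genes of the constitutive particle (alpha ring, structural and standard catalytic beta subunits, ATPases and non-ATPase cap) were among the abundant transcripts of both lines. Their levels summed to 4324 RPKM in Huh7 with ODC1 siRNA and 4279.8 RPKM in Huh7 with NC siRNA, a ratio of 1.01. In Huh1 the sums were 4078 RPKM with ODC1 siRNA and 4309.7 RPKM with NC siRNA, a ratio of 0.946. Between the lines the ratio of Huh7 to Huh1 was 1.06 with ODC1 siRNA and 0.993 with NC siRNA. The 4 ratios thus lay between 0.946 and 1.06, and with 1 library each they have no replicate check. In these bulk libraries, fewer cells with a transcript and less of it per cell cannot be told apart.

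Within the particle the levels were ordered by role. Across the 4 libraries the median of the 7 alpha subunits lay between 162 and 174 RPKM, and that of the 3 standard catalytic subunits between 165 and 188 RPKM. The median of the 6 ATPases lay between 95.5 and 118 RPKM, and that of the 11 non-ATPase cap subunits between 80.1 and 102 RPKM. Core subunits therefore had higher medians than cap subunits in every library, while single genes overlapped: PSMA5 was between 40.7 and 66.7 RPKM and PSMD14, the deubiquitinase of the cap, between 137 and 177 RPKM. The ranking of the 46 expressed genes was much alike in the lines, with a Spearman rho of 0.933 between the ODC1 siRNA libraries and 0.929 between the NC siRNA libraries, across genes that share transcript lengths and mapping.

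**Figure D1:**
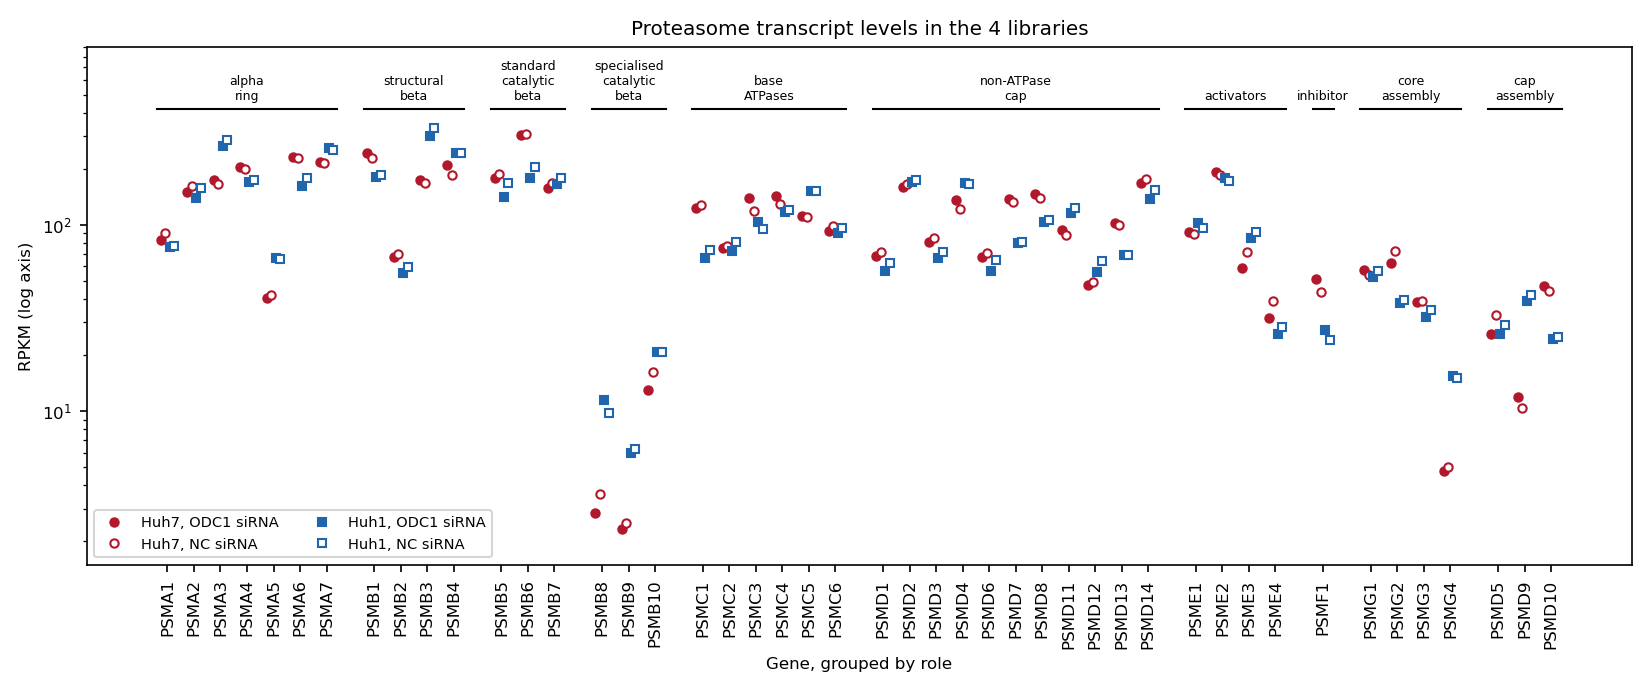
RPKM (log axis) of the 46 proteasome genes with at least 1 RPKM in some library, grouped by role, with 1 point for each of the 4 libraries. The standard core and cap genes lie between 40.7 and 330.4 RPKM, PSMB8 and PSMB9 at 11.4 RPKM or less, and the points of Huh7 and Huh1 stand apart for PSMD9, PSMG4 and PSMF1.

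The genes of tissue-restricted particles were at the floor. PSMA8, an alpha subunit of the testis particle, had 0.049 RPKM, about 1 read, in Huh1 with ODC1 siRNA and was at 0 in the other 3 libraries, where 3 reads would be worth 0.124 to 0.163 RPKM. PSMB11, the thymic catalytic subunit, had 0.024 RPKM in Huh1 with ODC1 siRNA, or 0.557 reads at the transcript length used. It was at 0 in the other 3, where 3 reads would be worth 0.106 to 0.139 RPKM at that length. A value above 0 needs at least 1 whole read, so the length may be too short and these floors too high. Neither gene was detectable above counting error at this depth, and neither entered a test.

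The comparison of ODC1 siRNA with NC siRNA asked whether lowering a proteasome substrate's transcript came with a change in proteasome transcripts. Over both lines, limma on log2(RPKM + 1) with line as a term called 0 of 46 proteasome genes higher and 0 of 46 lower at an adjusted p under 0.05, where 1.5% of all 12039 genes tested were called higher and 0.615% lower. The median log2 fold change of the 46 was -0.04, and it was 0.01 over all genes tested. Without adjustment, 7 of the 46 had p under 0.05, namely PSMC3 and PSMF1 in the higher direction and PSMA2, PSMB5, PSMD5, PSME3 and PSME4 in the lower, against 2286 of the 12039 genes. Each of the 9 other settings of the fit also called 0 of the proteasome genes. With no filter, no intensity trend or no line term, 0 of all genes were called. Even ODC1 lost its call there, so these settings say nothing about proteasome genes in particular. Each gene left 1 residual degree of freedom. To this, limma added a prior variance estimated from all genes tested, with a median of 7.42 degrees of freedom. The p-values and the intervals of the fit therefore rest mostly on variance shared across genes. They measure the spread between these libraries only.

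A missed threshold does not show that the levels were equal, so the width of the intervals was read as well. For 38 of the 46 genes (82.6%) the 95% interval of the siRNA effect lay wholly within 0.32 log2 units of 0 in either direction, against 33.7% of all genes tested. Abundant genes have narrower intervals, and among the 3917 genes with a mean of at least 20 RPKM the share was 60.7%. Within single lines, where there is no test and a change of 0.32 log2 units was taken as a rule of size, Huh7 had 0 of 46 genes higher (11% of all genes) and 1 of 46 lower (11.7% of all genes), which was PSMD5. Huh1 had 0 of 46 higher (6.55% of all genes) and 0 of 46 lower (3.36% of all genes). The median size of the change, in either direction, was 0.078 log2 units for the 46 in Huh7 against 0.163 over all genes, and 0.101 against 0.112 in Huh1. Among the 3917 genes with a mean of at least 20 RPKM it was 0.136 in Huh7 and 0.098 in Huh1, so that in Huh1 the 46 were not below this set. The bound of 20 RPKM is a minimum level, and the set is not matched in level to the 46. In Huh7, 25 of the 46 stood below 0 with a median of -0.03, beside 6057 of the 12039 genes tested, whose median was 0.00. In Huh1, 33 of the 46 stood below 0 with a median of -0.07, beside 5416 of the 12039 with a median of 0.02.

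**Figure D2:**
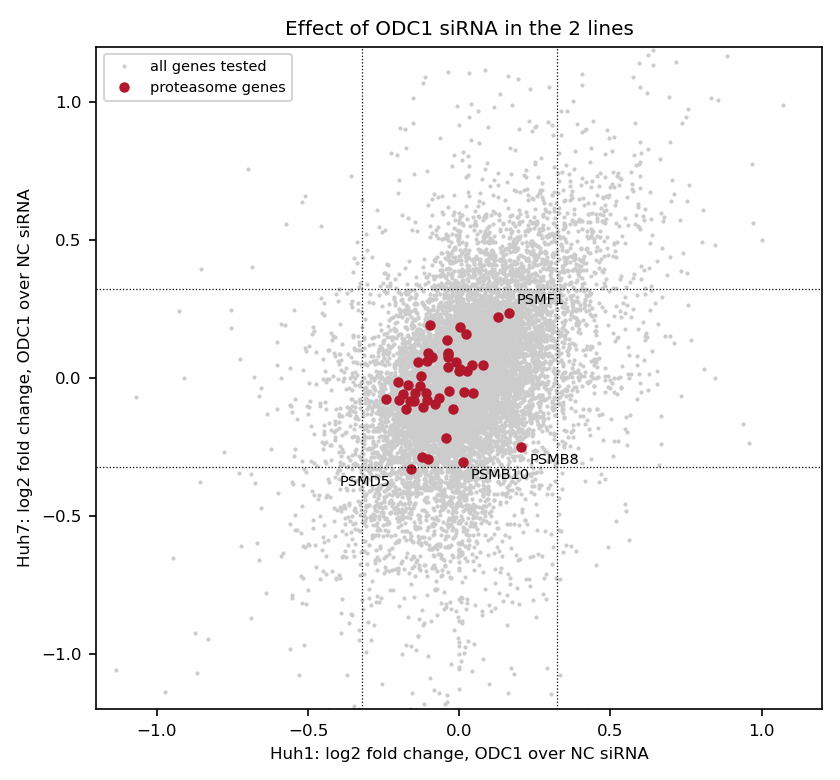
Log2 fold change of ODC1 over NC siRNA in Huh7 (vertical) against Huh1 (horizontal) on the log2(RPKM + 1) scale, for proteasome genes (red) and all genes tested (grey). The axes end at 1.2 in each direction, leaving out 29 genes, and the proteasome genes sit near the centre, with PSMD5 lowest in Huh7 at -0.33 and PSMF1 highest in Huh7 at 0.24.

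Among core subunits the values with the 2 siRNAs were close. PSMA1, an alpha ring subunit, had 83.3 RPKM with ODC1 siRNA against 90.04 with NC siRNA in Huh7, and 76.2 against 77.3 in Huh1. PSMA2, also of the alpha ring, had 150.01 against 162 RPKM in Huh7 and 139 against 157 in Huh1. It was lower with ODC1 siRNA in both lines, with a log2 fold change of -0.15 ± 0.062 (SE) that missed the threshold (limma adjusted p = 0.252).

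Among the structural beta subunits, PSMB4 had 210.4 RPKM with ODC1 siRNA against 185 with NC siRNA in Huh7, and 242 against 242 in Huh1. PSMB2 had 67.4 against 70.1 RPKM in Huh7 and 55.2 against 59.7 in Huh1. The Huh7 and Huh1 differences of PSMB4 were 0.18 and 0.00 in log2 fold change, and those of PSMB2 were -0.06 and -0.11.

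The active-site subunits were as follows. PSMB5, the chymotrypsin-like site and main target of proteasome inhibitor drugs, had 178 RPKM with ODC1 siRNA against 188 with NC siRNA in Huh7, and 142 against 168 in Huh1, a log2 fold change of -0.16 ± 0.067 (SE) over both lines (limma adjusted p = 0.242). PSMB6, the caspase-like site, had 302 against 305 RPKM in Huh7 and 178 against 205 in Huh1. PSMB7, the trypsin-like site, had 157 against 169 RPKM in Huh7 and 165 against 179 in Huh1. All 3 were lower with ODC1 siRNA in both lines, by less than 0.32 log2 units, and none passed the test.

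In the cap, PSMC3, an ATPase of the ring, had 139 RPKM with ODC1 siRNA against 119 with NC siRNA in Huh7 and 104 against 95.1 in Huh1. It stood higher with ODC1 siRNA in both lines, with a log2 fold change of 0.17 ± 0.066 (SE) that missed the threshold (limma adjusted p = 0.201). PSMC1, another ATPase, had 123 against 128 RPKM in Huh7 and 66.1 against 73.3 in Huh1. PSMD6, a structural subunit of the lid, had 67.1 against 70.9 RPKM in Huh7 and 56.6 against 65.1 in Huh1. PSMD14 had 167 against 177 RPKM in Huh7 and 137 against 154 in Huh1. The log2 fold changes over both lines were -0.10 for PSMC1, -0.14 for PSMD6 and -0.12 for PSMD14, with limma adjusted p of 0.456, 0.337 and 0.329.

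Of the 4 activators, which open the core without ubiquitin, 0 passed the test, beside 1.5% of all genes called higher and 0.615% lower. PSME1 and PSME2, which form the interferon-induced cytoplasmic activator, had log2 fold changes of 0.06 and 0.05. PSME1 had 91.9 RPKM with ODC1 siRNA against 88.9 with NC siRNA in Huh7 and 102 against 96.5 in Huh1. PSME2 had 192 against 186 RPKM in Huh7 and 178 against 173 in Huh1. Both were slightly above their control in each line, and neither passed (limma adjusted p = 0.655 for PSME1 and 0.730 for PSME2).

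The nuclear activators stood on the other side of 0. PSME3, the nuclear activator that degrades some unfolded proteins without ubiquitin, had 58.4 RPKM with ODC1 siRNA against 71.7 with NC siRNA in Huh7 and 84.6 against 91.01 in Huh1. PSME4, the activator linked to histone degradation, had 31.6 against 38.8 RPKM in Huh7 and 25.9 against 28.3 in Huh1. Both were lower with ODC1 siRNA in both lines, each with a log2 fold change of -0.20, and neither passed (limma adjusted p = 0.203 for PSME3 and 0.234 for PSME4). PSMF1, which binds and inhibits the core particle in vitro, had 51.3 against 43.4 RPKM in Huh7 and 27.2 against 24.2 in Huh1, a log2 fold change of 0.20 ± 0.078 (SE; limma adjusted p = 0.216).

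Of the assembly factors, PSMD5, a chaperone of the ATPase ring that can inhibit particle assembly, had the lowest siRNA effect of the 46. It had 25.98 RPKM with ODC1 siRNA against 32.9 with NC siRNA in Huh7 and 25.9 against 29.1 in Huh1, a log2 fold change of -0.25 ± 0.085 (SE) that missed the threshold (limma adjusted p = 0.173). Of the chaperones of the core particle, PSMG1 was at -0.01, PSMG2 at -0.13, PSMG3 at -0.08 and PSMG4 at -0.01 in log2 fold change, and none passed. PSMG2 had 62.2 RPKM with ODC1 siRNA against 72.4 with NC siRNA in Huh7, a log2 fold change of -0.22 (95% counting interval -0.35 to -0.08), and 38.1 against 39.3 in Huh1 (-0.04). PSMG1 had 57.1 against 53.5 RPKM in Huh7 and 52.4 against 56.4 in Huh1, so its direction differed between the lines. PSMG3 had 38.3 against 39.1 RPKM in Huh7 and 31.9 against 35.0 in Huh1.

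The comparison of Huh7 with Huh1, over both siRNAs, gave differences for most of the same genes. Limma called 22 of the 46 higher in Huh7 (47.8%, against 43.1% of all genes tested) and 15 lower (32.6%, against 30.8% of all genes). In this fit, the shares were thus near those of the whole transcriptome. The differences were smaller in size, with a median of 0.36 log2 units in either direction for the 46 and 0.54 over all genes. Among the 3917 genes with a mean of at least 20 RPKM, the median size was 0.478 with ODC1 siRNA and 0.472 with NC siRNA. For the 46 it was 0.300 and 0.338. The split into higher and lower depends on scaling: it was 17 and 18 with upper quartile scaling and 11 and 18 with median-of-ratios scaling, which moved the median of all genes to 0.06 and -0.01, against 0.13 as deposited. Under every one of the 9 alternatives, 11 genes stayed higher (23.9%, against 32.9% of all genes) and 13 stayed lower (28.3%, against 25.4% of all genes). The median of the 46 was 0.10 as deposited, 0.02 with upper quartile scaling and -0.06 with median-of-ratios scaling, below that of all genes in each. With quantile normalization it was 0.08, above the 0.01 of all genes, so the order of these medians depends on scaling. Pseudogenes under the gene's own name are annotated for PSMA2, PSMA3, PSMA6, PSMB3, PSMB7, PSMC1, PSMD4, PSMD7, PSMD8, PSMD10, PSMD12 and PSME2, and their reads may be mixed with those of the gene. No label says that the libraries of a line came from separate cultures, and those libraries also differed in siRNA. The p-values count an unequal siRNA effect in the lines as error and may hold no spread between cultures.

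**Figure D3:**
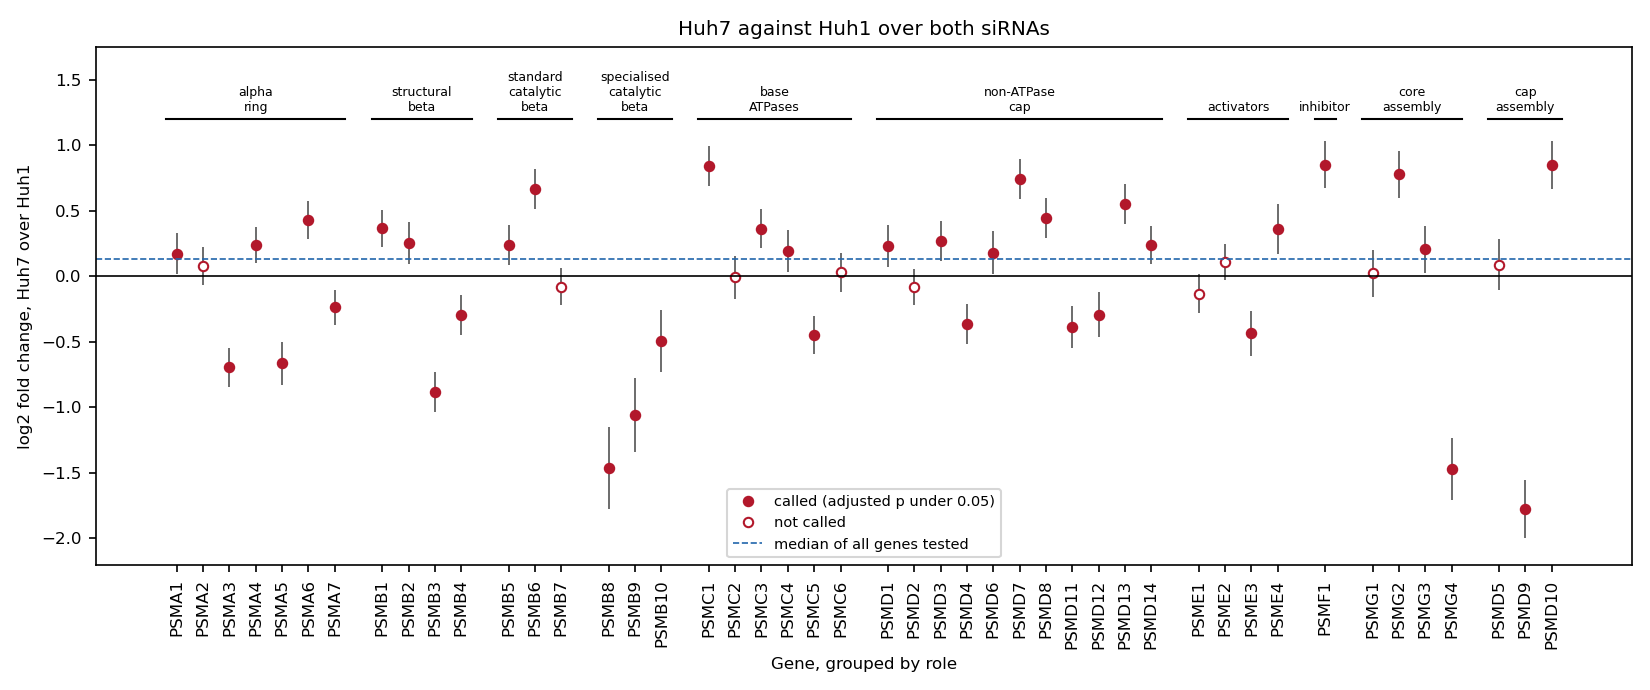
Log2 fold change of Huh7 over Huh1, over both siRNAs, for the 46 expressed proteasome genes grouped by role, with 95% intervals from limma, filled points for called genes and a dashed line at the median of all genes tested (0.13). The 3 immunoproteasome subunits, PSMG4 and PSMD9 lie below 0, while PSMC1, PSMF1, PSMG2 and PSMD10 lie at 0.78 or above.

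The immunoproteasome subunits were lower in Huh7 than in Huh1, all 3 of those tested, beside 30.8% of all genes called lower. PSMB8, the inducible counterpart of PSMB5, had 2.84 RPKM in Huh7 with ODC1 siRNA and 3.57 with NC siRNA, against 11.4 and 9.77 in Huh1, a log2 fold change of -1.46 ± 0.14 (SE; limma adjusted p = 1.70e-05). PSMB9, the counterpart of PSMB6, had 2.34 and 2.50 RPKM in Huh7 against 5.95 and 6.27 in Huh1 (-1.06 ± 0.12, adjusted p = 6.77e-05). PSMB10, the counterpart of PSMB7, had 12.9 and 16.2 RPKM in Huh7 against 20.9 and 20.7 in Huh1 (-0.49 ± 0.10, adjusted p = 0.00234). The antisense gene PSMB8-AS1 lies beside PSMB8, and without strand their reads cannot be told apart. The RPKM ratio of Huh7 to Huh1 with ODC1 and NC siRNA was 0.249 and 0.366 for PSMB8 and 0.393 and 0.399 for PSMB9. For each of the 3 both Huh7 libraries lay below both Huh1 libraries, and each call held under all 9 alternatives. With ODC1 siRNA, PSMB8 was at -0.25 in log2 fold change in Huh7 and 0.21 in Huh1, PSMB9 at -0.07 in both, and PSMB10 at -0.30 in Huh7 and 0.01 in Huh1, and none passed the test over both lines.

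Set against their standard counterparts, the immunoproteasome transcripts were the minor forms in both lines. PSMB8 made up 1.57% of the summed RPKM of PSMB8 and PSMB5 in Huh7 with ODC1 siRNA (95% counting interval 1.15% to 2.15%) and 1.87% with NC siRNA (1.45% to 2.41%), against 7.46% (6.45% to 8.61%) and 5.50% (4.76% to 6.35%) in Huh1. PSMB9 made up 0.766% and 0.813% of its pair with PSMB6 in Huh7, against 3.24% and 2.97% in Huh1. PSMB10 made up 7.62% and 8.77% of its pair with PSMB7 in Huh7, against 11.3% and 10.4% in Huh1. The counting intervals of the lines did not overlap for PSMB8 and PSMB9, whereas that of PSMB10 in Huh7 with NC siRNA (7.68% to 10.01%) overlapped those in Huh1 (9.97% to 12.7% with ODC1 siRNA and 9.27% to 11.6% with NC siRNA). The PSMB8 share in Huh1 was higher with ODC1 siRNA than with NC siRNA beyond counting error, in 1 library each. In those libraries PSMB5 was at -0.24 in log2 fold change (95% counting interval -0.33 to -0.16), while the interval of PSMB8 itself, -0.07 to 0.48, included 0.

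**Figure D4:**
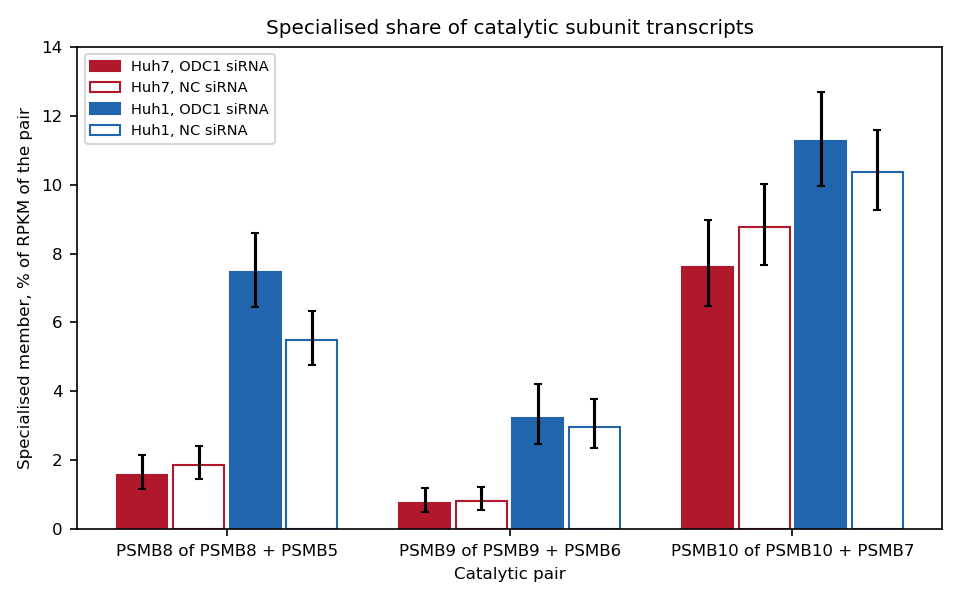
Share of each immunoproteasome subunit in the summed RPKM of the pair it forms with its standard counterpart, in percent, for the 4 libraries, with bars for 95% counting intervals. The Huh7 bars stand below the Huh1 bars in each pair, at 0.766% to 8.77% in Huh7 against 2.97% to 11.3% in Huh1.

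Of the 3 standard active-site genes, 2 were higher in Huh7 and 0 lower, beside 43.1% and 30.8% of all genes. PSMB6 was higher in Huh7, with 302 and 305 RPKM with ODC1 and NC siRNA against 178 and 205 in Huh1 (log2 fold change 0.67 ± 0.066, SE; limma adjusted p = 2.51e-05). PSMB5 was higher at 0.24 ± 0.067 (adjusted p = 0.00973), a call lost with median-of-ratios scaling, without the intensity trend and without the siRNA term. PSMB7 was at -0.08 ± 0.061 (adjusted p = 0.267) and was called lower only with upper quartile and median-of-ratios scaling.

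In the alpha ring, 3 of the 7 genes were higher and 3 lower in Huh7, beside 43.1% and 30.8% of all genes. The lowest were PSMA3, with 174 and 166 RPKM in Huh7 with ODC1 and NC siRNA against 265 and 286 in Huh1 (log2 fold change -0.69), and PSMA5, with 40.7 and 42.2 RPKM against 66.7 and 65.9 (-0.66). PSMA6, which has 4 such pseudogenes, was higher at 0.43. PSMA1 was at 0.17 with an adjusted p of 0.047, and 8 of the 9 alternatives lost that call. Of the structural beta subunits, PSMB3 was lower, with 174 and 167 RPKM in Huh7 against 301 and 330.4 in Huh1 (-0.88, limma adjusted p = 4.60e-06). PSMB1 was higher, with 243 and 228 RPKM in Huh7 against 180.4 and 185 in Huh1 (0.37, adjusted p = 7.51e-04). PSMB2 was higher at 0.26, a call lost with median-of-ratios scaling and without the trend, and PSMB4 lower at -0.29, a call lost with quantile normalization. Subunits that the assembled ring holds in equal number therefore differed between the lines in opposite directions at the transcript level, by up to 0.88 log2 units.

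In the cap, 3 of the 6 ATPases were higher in Huh7 and 1 lower, beside 43.1% and 30.8% of all genes. PSMC1, whose yeast counterpart opens the gate of the core, had 123 and 128 RPKM in Huh7 with ODC1 and NC siRNA against 66.1 and 73.3 in Huh1 (log2 fold change 0.84 ± 0.067, SE; limma adjusted p = 6.35e-06). Its promoter held none of the motifs searched, and 13 pseudogenes carry its name in GENCODE, more than for any other of the 48, so its level is uncertain. PSMC5 was lower, with 112 and 109.5 RPKM in Huh7 against 152 and 151 in Huh1 (-0.45, adjusted p = 2.15e-04). Of the 11 non-ATPase cap subunits, 7 were higher and 3 lower, beside the same shares. PSMD7, the partner of the deubiquitinase PSMD14, was highest at 0.74, with 138 and 133 RPKM in Huh7 against 80.1 and 80.7 in Huh1. PSMD13 followed at 0.55, with 102 and 100 RPKM in Huh7 against 68.6 and 68.5 in Huh1. The lowest was PSMD11, a lid scaffold subunit, at -0.39. PSMD4, a ubiquitin receptor, was at -0.36, and PSMD2, which binds ubiquitin-like domains, was at -0.08 and not called.

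Among activators and the inhibitor, PSME3 was lower in Huh7 (log2 fold change -0.43 ± 0.075, SE; limma adjusted p = 7.46e-04). PSME4 was higher at 0.36 ± 0.083 (adjusted p = 0.00407), which median-of-ratios scaling took to an adjusted p of 0.055. PSME1 and PSME2, at -0.13 and 0.11, did not pass. PSMF1 was higher in Huh7, with 51.3 and 43.4 RPKM with ODC1 and NC siRNA against 27.2 and 24.2 in Huh1 (0.85 ± 0.078, adjusted p = 1.45e-05), and both Huh7 libraries lay above both Huh1 libraries.

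The assembly factors included the largest fitted difference of the 46, that of PSMD9. PSMD9, a chaperone of the ATPase ring, had 11.96 and 10.3 RPKM in Huh7 with ODC1 and NC siRNA against 39.1 and 41.9 in Huh1 (log2 fold change -1.77 ± 0.098, SE; limma adjusted p = 6.78e-07). PSMD10, also called gankyrin, an ATPase ring chaperone known as an oncoprotein of hepatocellular carcinoma, had 47.03 and 44.3 RPKM in Huh7 against 24.5 and 25.1 in Huh1 (0.85 ± 0.080, adjusted p = 1.74e-05). PSMD5, of the same function, was at 0.09 (adjusted p = 0.366). The 3 chaperones of the ATPase ring therefore stood low, high and not called in Huh7, and both calls held under all 9 alternatives.

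The chaperones of the core particle were divided in the same way. PSMG4, which works with PSMG3 on the alpha ring, had 4.77 and 4.99 RPKM in Huh7 with ODC1 and NC siRNA against 15.5 and 15.02 in Huh1 (log2 fold change -1.47 ± 0.10, SE; limma adjusted p = 2.99e-06). Its partner PSMG3 was at 0.21 (adjusted p = 0.039), a call lost under 6 of the 9 alternatives. PSMG2 had 62.2 and 72.4 RPKM in Huh7 against 38.1 and 39.3 in Huh1 (0.78 ± 0.078, adjusted p = 2.58e-05), while its partner PSMG1 was at 0.02 (adjusted p = 0.805). In each pair of partners, 1 gene held its call under all 9 alternatives and the other did not or was never called.

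Genes that work with the proteasome were read from lists. Of 10 further proteasome genes, 0 passed the test of the siRNA, beside 1.5% of all genes called higher and 0.615% lower. At these shares, 0 calls in a list this short say little about it. In Huh7, 4 of the 10 were higher and 5 lower, beside 43.1% and 30.8% of all genes. POMP, the chaperone that completes the core particle, had 114 and 105 RPKM in Huh7 with ODC1 and NC siRNA against 68.7 and 74.1 in Huh1 (log2 fold change 0.61, limma adjusted p = 1.05e-04). UCHL5, a deubiquitinase of the cap, was higher at 0.92, whereas SHFM1, a small cap subunit, was lower at -0.59 and AKIRIN2, which brings proteasomes into the nucleus, at -0.64. The signalosome, a relative of the proteasome lid, had 0 of 9 genes called with the siRNA and 4 higher and 2 lower in Huh7, against the same background.

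The route that raises proteasome genes when proteasomes are short, through the transcription factor NFE2L1, was also examined. NFE2L1 had 55.2 RPKM with ODC1 siRNA against 41.6 with NC siRNA in Huh7 and 39.5 against 31.8 in Huh1, a log2 fold change of 0.35 ± 0.076 (SE) that missed the threshold (limma adjusted p = 0.058) and passed it with a trend on counting variance (0.030). None of the 8 genes of this list was called with the siRNA, beside 1.5% of all genes called higher and 0.615% lower. In Huh7, 5 of the 8 were higher and 2 lower, beside 43.1% and 30.8% of all genes.

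Of the 9 tested genes of antigen presentation, the route that immunoproteasome products enter, 5 were lower and 2 higher in Huh7, beside 30.8% and 43.1% of all genes. TAP1 and TAP2, which carry peptides into the endoplasmic reticulum, were at -0.46 and -0.92 in log2 fold change (limma adjusted p = 0.00699 and 4.27e-05). HLA-C was lower at -2.99, while HLA-B was higher at 0.46, a call lost under 2 of the 9 alternatives, and reads of these near-identical genes may be split between them. Of 12 interferon response genes, 3 were higher and 5 lower in Huh7, against the same background. With ODC1 siRNA 0 of the 9 presentation genes and 0 of the 12 interferon genes passed the test. Over all genes, 1.5% were called higher and 0.615% lower, so 0 calls in lists this short say little. B2M, the invariant chain of class I molecules, came closest of the presentation genes at 0.32 (adjusted p = 0.052) and passed with upper quartile scaling and with a trend on counting variance.

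Of the genes that act on ornithine decarboxylase itself, the antizyme genes were not analysed here. AZIN1, the antizyme inhibitor, had 62.04 RPKM with ODC1 siRNA against 66.5 with NC siRNA in Huh7 and 62.9 against 61.1 in Huh1, a log2 fold change of -0.03 (limma adjusted p = 0.867). NQO1, which shields the enzyme from ubiquitin-independent degradation, was lower in Huh7, with 121 and 129.9 RPKM with ODC1 and NC siRNA against 821 and 773 in Huh1 (-2.66, adjusted p = 6.03e-09). Its log2 fold change with ODC1 siRNA was -0.01. PSMC3IP, the matched gene that is not a proteasome gene, was between 15.4 and 20.1 RPKM in all libraries and was at -0.10 with the siRNA and -0.26 between the lines.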

How the data were processed

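Total RNA of transfected Huh7 and Huh1 cells was made into TruSeq libraries, per the labels' protocols. Per the submitters' processing notes, CASAVA 1.8.2 and TopHat2 2.0.9 were used with build hg19. For the counting program, annotation and strand setting, nothing is given in the sources used, so antisense reads cannot be told apart from a gene's own. The deposited files hold RPKM values that the authors computed per RefSeq transcript.

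Values were analysed as log2(RPKM + 1), which understates changes of low genes. A limma fit (version 3.58.1, R 4.3.3) held terms for siRNA and line, let the variance follow intensity, and covered 12039 genes that reached 1 RPKM in some library, with Benjamini-Hochberg adjustment over all of them, a threshold of 0.05 and two-sided tests. The line is the block that pairs ODC1 with NC siRNA libraries of the same cells. Within a line a change of 0.32 log2 units was a rule of size with no test. Depth was recovered from values worth 1 read, and reads from depth and the shorter of the GENCODE 29 transcript length and a length giving whole reads (tolerance 0.001), a choice that gives the lower count and the wider interval. At the length used, 17 of the 48 genes had whole reads in all libraries, and the others fractional ones. Counting intervals (95%) and floors (3 reads) cover counting error only. Of the 48 genes, 12 have pseudogenes under their name, 32 in all.

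Genes named with values in every library were the catalytic subunits, activators, inhibitor, core chaperones, PSMA8 and PSMB11, and in each other role the largest siRNA and line effects. The members and lists were chosen with earlier results of these data known. The fit was also run on simulated data with siRNA effects alike in both lines. That run does not check the p-values of genes whose response differs between the lines. Alternatives were quantile, upper quartile and median-of-ratios scaling, a filter at 5 RPKM or none, a pseudocount of 0.1, no trend, a trend on counting variance, no line or siRNA term, fold rules of 1.5 and 2, and each library left out. A few genes of the comparison lists are not reported here.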

Additional observations from a re-analysis of the deposited data

Results flagged for a closer look

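PSMD11, a scaffold subunit of the lid, had a log2 fold change of ODC1 over NC siRNA of 0.0762 in Huh7 and -0.0886 in Huh1. The 95% counting interval was 0.008 to 0.144 in Huh7 and -0.146 to -0.031 in Huh1, so the intervals lay on opposite sides of 0. These intervals take the deposited scaling as given. Of the 46 proteasome genes with an interval, it lay above 0 for 7 and below for 10 in Huh7, and above for 2 and below for 18 in Huh1. Such intervals were not computed over all genes, so these counts say nothing about proteasome genes in particular. The levels were 93.4 RPKM with ODC1 siRNA against 88.6 with NC siRNA in Huh7, and 116 against 123 in Huh1. No test was made of how the lines differ, since each line has 1 library per siRNA, and the intervals cover counting error only.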

How the results depend on the processing

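The siRNA fit called 0 proteasome genes higher and 0 lower under all 9 alternatives, of which no filter, no trend and no block called 0 of all genes as well. With no replicate block, that is without the term of the other factor that pairs the libraries, the siRNA counts stayed at 0 and 0 and the line counts were 15 higher and 15 lower, against 22 and 15. The count higher in Huh7 was 11 with median-of-ratios scaling and 13 without the trend. The median line effect of the 46 genes, 0.10, was 0.0205 with upper quartile scaling and -0.0570 with median-of-ratios scaling. Leaving out a library leaves the siRNA effect of the other line, or the line effect with the other siRNA, and so adds no separate check. The medians were then -0.07 to -0.03 for the siRNA and 0.10 to 0.12 for the line. Calls without a library were not run, as no residual degree of freedom is left. Of the 37 line calls, 24 held under every alternative, and none reversed. In Huh7 the count lower by 0.32 log2 units or more, 1 (PSMD5), was 0 with a 1.5-fold and 0 with a 2-fold rule. It was 2 with a pseudocount of 0.1 (PSMB10 and PSMD5), and 4 with upper quartile scaling (those 2, PSME3 and PSME4). The cause of these shifts was not tested. Depth limits PSMA8 and PSMB11 to an upper bound and rests PSMB8 in Huh7 on about 39.3 and 58.9 reads with ODC1 and NC siRNA, and PSMB9 on about 18.7 and 23.9, or 46 and 69 and 25 and 32 at the longer lengths that give whole reads.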
